A study of Homo sapiens with 6 samples.

Results

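Basement membranes are thin sheets of extracellular matrix on which epithelial and endothelial cells rest and which wrap muscle fibres, fat cells, nerves and blood vessels. Laminin trimers and collagen IV trimers form separate networks in these sheets, nidogens and the heparan sulfate proteoglycans perlecan and agrin link them, and cells hold on through integrins and dystroglycan. In skin the sheet between epidermis and dermis is built by keratinocytes and dermal fibroblasts together, and fibroblasts supply part of its collagen IV, collagen VII, laminin chains and nidogens.

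The basement membrane genes were followed in RNA-seq of HFF-2 human dermal fibroblasts (HDFs), which the authors acquired from ATCC. HDFs carried a hairpin RNA that targets transcription factor EB, TFEB (group TFEB-KD), or a control hairpin of scrambled sequence (group SCR). Lentivirus delivered the TFEB hairpin, and puromycin selected the cells that kept it. TFEB is a transcription factor best known for switching on lysosome and autophagy genes. All 6 libraries, 3 SCR and 3 TFEB-KD, were made at day 4 of tBHP treatment, in which the cells met 40 µM tert-butyl hydroperoxide, an organic peroxide that oxidizes cell components, in exposures of 1 h given 2 times per day, so the comparison concerned the knockdown under oxidative stress and no unstressed library entered it. A single hairpin per group limits the model. The methods say of all experiments that they used independent biological replicates, and the labels number the libraries without naming a culture. The genes were chosen by name: 35 of the 62754 genes in the deposited tables carry the name of a collagen IV, VII, XV or XVIII chain, a laminin chain, a nidogen, perlecan, agrin or an associated protein. Total counts ran from 38769620 to 55135426 in SCR and from 42433767 to 51499335 in TFEB-KD.

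The target of the hairpin was measured first. TFEB (ENSG00000112561.19) had 809, 562 and 784 counts in the SCR libraries against 420, 364 and 471 in the TFEB-KD libraries. In CPM, which sets counts on an equal depth using the TMM scaling factors, its level was 15.4 ± 0.872 in SCR against 8.90 ± 0.707 in TFEB-KD (SD, n = 3 each), so 57.6% of the transcript remained. The log2 fold change, TFEB-KD over SCR as for all fold changes here, was -0.80 (standard error 0.077, edgeR adjusted p = 1.37e-05).

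The cells had the markers of fibroblasts. VIM (vimentin) had a mean of 4139 TPM (a level scaled for transcript length and library total), and all 10 fibroblast markers listed were above 1 TPM. Their summed TPM was 10450, 10550 and 10970 in SCR and 7954, 7909 and 7727 in TFEB-KD, without overlap. The markers differed within this sum. In mean TPM in SCR and TFEB-KD, COL1A1 (1941 and 695.5), COL1A2 (2039 and 899.9) and COL3A1 (166 and 19.6) were lower. The groups overlapped for VIM (4122 and 4155) and FBLN1 (641 and 672). In these bulk libraries fewer cells of a type and less RNA per cell cannot be told apart.

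Of the 35 basement membrane genes, 28 had enough counts to be tested. A gene was called when its edgeR adjusted p was under 0.05 and its absolute log2 fold change over 0.36, the thresholds of the study. By this rule 17 of the 28 were lower in TFEB-KD (60.7%) and 2 were higher (7.14%), while over all 16931 genes tested 15.0% were lower and 9.99% higher. By the same rule and against the same shares of all genes, 6 of the 10 fibroblast markers were lower (COL1A1, COL1A2, COL3A1, LUM, PDGFRB and THY1; 60%) and 2 were higher (DCN and PDGFRA; 20%). The median log2 fold change of the 28 was -0.48, against 0.0033 for all genes tested. For 25 of the 28, every SCR library lay on the same side of every TFEB-KD library in CPM, which 55.5% of all genes tested also showed. When libraries were scaled by their size alone, without TMM, 2047 genes were lower and 2497 higher over all genes, and 13 of the 28 were lower and 3 higher.

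**Figure D1:**
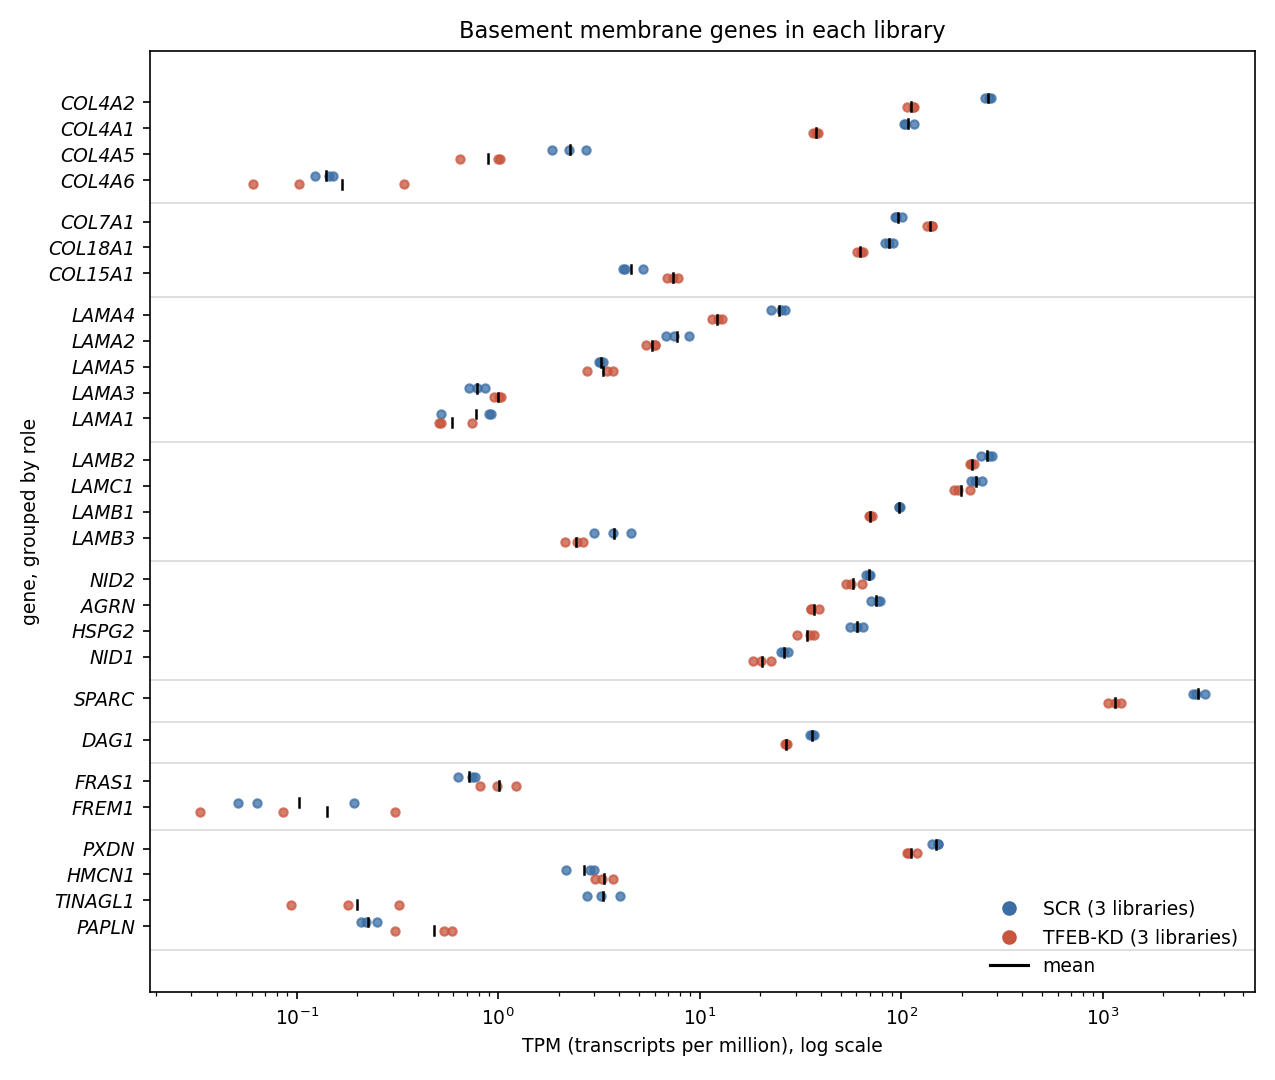
Level of each tested basement membrane gene in TPM (log axis) in 3 SCR libraries (blue) and 3 TFEB-KD libraries (red), grouped by role, with the mean of each group as a black bar. The mean levels run from FREM1 (mean 0.122 TPM) to SPARC (mean 2061 TPM), and the TFEB-KD points of COL4A1, COL4A2, SPARC, AGRN, LAMA4 and HSPG2 lie to the left of all SCR points.

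The levels in HDFs were very uneven. SPARC, with a mean of 2061 TPM over the 6 libraries, made up 59.5% of the summed TPM of the 35 genes, with 2977 of 4612 TPM in SCR and 1145 of 2317 TPM in TFEB-KD. Over all 6 libraries it was followed by LAMB2 (mean 246 TPM), LAMC1 (217), COL4A2 (191), PXDN (130) and COL7A1 (118). The place of COL4A2 differed between the groups: with means of 271 TPM in SCR and 112 TPM in TFEB-KD it was next to LAMB2 (268) in SCR and close to PXDN (112) and below COL7A1 (139) in TFEB-KD. LAMB2 and LAMC1 overlapped across the 6 libraries (220 to 284 TPM against 182 to 252), and so did PXDN and COL7A1 (107.5 to 152 against 93.3 to 142.5). Within each group PXDN and COL7A1 were apart, in opposite order. PXDN was above COL7A1 in SCR (142.5 to 152 against 93.3 to 101) and below it in TFEB-KD (107.5 to 120.5 against 134 to 142.5). At the other end, 7 genes were not tested: COL4A3, COL4A4, LAMC3, SMOC1, SMOC2, FREM2 and NPNT had between 0 and 14 counts in every library, too few to compare. COL4A3 and COL4A4 encode the collagen IV chains of kidney, lung and inner ear, and LAMC3 a laminin gamma chain of restricted expression.

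Collagen IV is the network-forming collagen of basement membranes, a trimer most often made of 2 α1 chains (COL4A1) and a single α2 chain (COL4A2). Of the 4 collagen IV chains tested, 3 were lower in TFEB-KD (75%, against 15.0% of all genes tested). COL4A1 (ENSG00000187498.16) was at 104.5, 103.7 and 115 TPM in SCR and at 38.5, 38.0 and 36.6 TPM in TFEB-KD. The TFEB-KD libraries were all at about the same low level, well under the lowest SCR library. In CPM its level was 489.6 ± 21.6 in SCR against 168 ± 4.49 in TFEB-KD (SD, n = 3 each), 34.3% of SCR, with a log2 fold change of -1.54 (standard error 0.047, edgeR adjusted p = 1.06e-08).

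COL4A2 (ENSG00000134871.19) was at 261, 272 and 279 TPM in SCR and at 114, 107 and 115 TPM in TFEB-KD, again without overlap. Its log2 fold change was -1.33 (standard error 0.044, edgeR adjusted p = 1.24e-08), a CPM level 39.8% of SCR. COL4A5, the α5 chain, which in skin belongs to the epidermal basement membrane, was far less abundant, with 429, 253 and 401 counts in the SCR libraries against 117, 160 and 174 in the TFEB-KD libraries. It fell by 1.27 on the log2 scale (standard error 0.13, edgeR adjusted p = 1.80e-05). COL4A6, the partner of COL4A5, had 11 to 35 counts per library with overlapping groups and was not called (log2 fold change -0.47, standard error 0.36, edgeR adjusted p = 0.311).

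COL4A1 and COL4A2 lie head to head. In GENCODE 44 on GRCh38, COL4A1 occupies chr13:110148963-110307157 on the minus strand and COL4A2 chr13:110305812-110513209 on the plus strand, so that the annotated genes share 1346 bases. No source used here tells if reads were counted by strand, so reads from the shared stretch are uncertain. In RefSeq 126 bases lie between the starts of the 2 genes. The 100 bases that follow the COL4A1 start on the COL4A2 strand, chr13:110307158-110307257 (GRCh38.p14, plus strand), hold no exon of either gene in GENCODE 44 and are shown because they lie between the starts of 2 genes that were lower together. They are 78% G and C. Capitals mark a CCAAT box from base 22 and a GGGCGG box, the core of binding sites of the SP family, from base 62.
COL4A1 and COL4A2: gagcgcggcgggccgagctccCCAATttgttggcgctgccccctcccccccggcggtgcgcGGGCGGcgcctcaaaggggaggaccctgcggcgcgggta

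The balance of the 2 chains also differed between groups. The ratio of COL4A1 to COL4A2 in TPM was 0.401, 0.381 and 0.414 in SCR and 0.337, 0.356 and 0.317 in TFEB-KD. Every TFEB-KD library had relatively less COL4A1, with a difference of -0.24 in log2 ratio. An exact two-sided permutation test gave p = 0.1, the smallest that 3 against 3 libraries allow, and the same p after adjustment over the 5 chain ratios compared.

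The other basement membrane collagens did not move together. COL18A1 (collagen XVIII, the source of endostatin) was lower, from 87.2 ± 4.28 to 62.8 ± 2.06 TPM (SD, n = 3 each), with a log2 fold change of -0.51 (standard error 0.048, edgeR adjusted p = 1.11e-05). COL15A1 (collagen XV, found where basement membranes meet the stroma) was higher, with 878, 650 and 968 counts in the SCR libraries against 1296, 1276 and 1432 in the TFEB-KD libraries. Although the SCR libraries include the deepest of the 6, each TFEB-KD library had more COL15A1 counts. Its log2 fold change was 0.67 (standard error 0.080, edgeR adjusted p = 6.45e-05).

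COL7A1 encodes collagen VII, the anchoring fibril that ties the epidermal basement membrane to the dermis. It was at 101, 94.3 and 93.3 TPM in SCR and at 142.5, 142 and 134 TPM in TFEB-KD, so every TFEB-KD library was above every SCR library. On counts it did not pass the fold threshold (log2 fold change 0.22, standard error 0.044, edgeR adjusted p = 0.00180). The transcript length implied by the deposited counts and TPM was shorter in TFEB-KD by 0.27 on the log2 scale. With that length as an offset COL7A1 was called higher, with a log2 fold change of 0.50 (edgeR adjusted p = 1.24e-04). The summed TPM of COL7A1, COL15A1 and COL18A1 was 188 ± 2.22 in SCR and 209.4 ± 3.98 in TFEB-KD (SD, n = 3 each; exact permutation p = 0.1). Summed in CPM the same 3 genes had the opposite direction, with 657 ± 19.1 in SCR and 613 ± 12.6 in TFEB-KD (exact permutation p = 0.1), so the direction of their sum depends on the scale. The summed TPM of the 6 collagen IV chains was 381 ± 14.5 and 150.9 ± 4.48 (exact permutation p = 0.1), 39.6% of SCR.

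**Figure D2:**
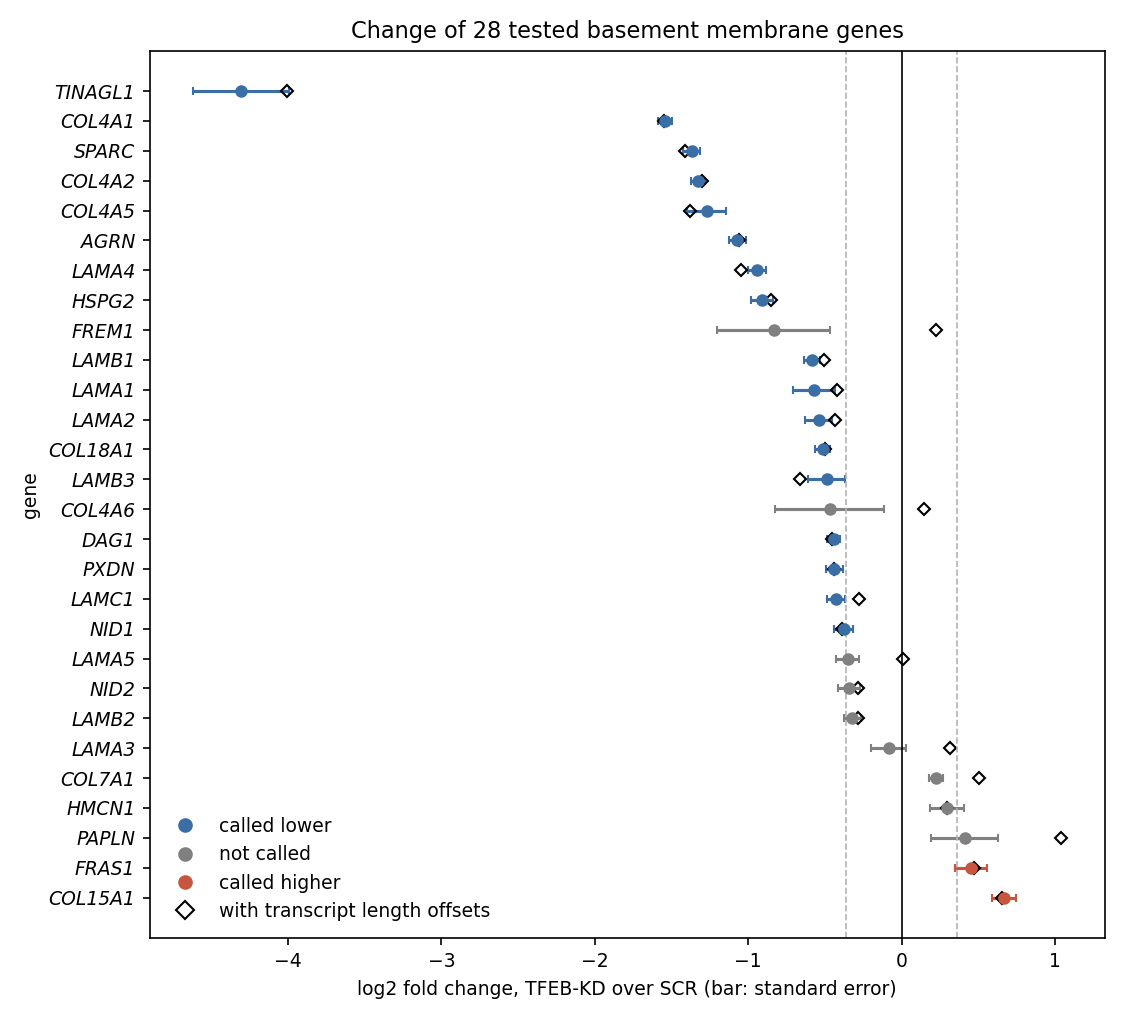
Log2 fold change, TFEB-KD over SCR, of the 28 tested basement membrane genes, ordered by value, with standard errors as bars, colour for the call and dashed lines at the fold threshold of 0.36 in either direction. Open diamonds give the value with transcript length offsets: they lie close to the filled points for COL4A1, SPARC, COL4A2 and AGRN, and move to 0 or across it for FREM1, COL4A6, LAMA5 and LAMA3.

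Laminins are trimers of an α, a β and a γ chain, and the α chain carries most of the contacts with cells. Of the 5 α chain genes 3 were lower in TFEB-KD (60%, against 15.0% of all genes tested) and 2 were not called. LAMA4, the α chain of vessel and fat basement membranes, was the most abundant of them and was at 22.6, 25.4 and 26.4 TPM in SCR and at 12.3, 12.9 and 11.6 TPM in TFEB-KD. Each TFEB-KD library had about the same level, under the lowest SCR library, and the log2 fold change was -0.94 (standard error 0.060, edgeR adjusted p = 6.02e-07). LAMA2, the α chain of muscle and nerve, had 1599, 1104 and 1649 counts in the SCR libraries against 1054, 885 and 1072 in the TFEB-KD libraries and a log2 fold change of -0.54 (standard error 0.086, edgeR adjusted p = 4.83e-04). Its call was lost with limma on log2(TPM + 1), at -0.35, and with edgeR's test against the fold threshold itself (glmTreat, adjusted p = 0.0551).

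LAMA1, the α chain of the early embryo, had 231, 162 and 196 counts in the SCR libraries against 151, 112 and 137 in the TFEB-KD libraries. It was called lower, with a log2 fold change of -0.57 (standard error 0.14, edgeR adjusted p = 0.00626), but the groups overlapped in TPM and the call was lost with transcript length offsets (-0.42, edgeR adjusted p = 0.225). LAMA5, the widespread α5 chain of adult epithelia and vessels, had 653, 473 and 620 counts in the SCR libraries against 399, 473 and 513 in the TFEB-KD libraries. It missed the fold threshold (log2 fold change -0.35, standard error 0.075, edgeR adjusted p = 0.00305), passed it without SCR replicate 1 (-0.38) or without TFEB-KD replicate 2 (-0.40), and was at 0.0092 with length offsets. The span of the ADRM1 gene on the opposite strand overlaps that of LAMA5. ADRM1 had 66230 counts over the 6 libraries against 3131 for LAMA5. Whether exons of these genes overlap was not checked, so it is not known if reads of LAMA5 are shared.

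LAMA3, the α chain that keratinocytes use in anchoring filaments, had 176 to 219 counts per library with overlapping groups and was not called (log2 fold change -0.086, standard error 0.11, edgeR adjusted p = 0.567). In TPM the groups did not overlap, with 0.715 to 0.860 in SCR and 0.956 to 1.035 in TFEB-KD. The sign of the LAMA3 change turned with library sizes alone and on length-corrected scales. The ratio of LAMA4 to LAMA5 in TPM was 7.66 ± 0.558 in SCR and 3.75 ± 0.674 in TFEB-KD (SD, n = 3 each; log2 difference -1.04, exact permutation p = 0.1), and no TFEB-KD library reached the lowest SCR value. On counts the log2 difference of this ratio was smaller, at -0.59. Both values rest on LAMA5, for which shared reads with ADRM1 were not checked.

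LAMB1, LAMB2 and LAMC1 were each more abundant in TPM than any of the α chains. LAMB1 and LAMC1 are the partners in most laminins of mesenchymal cells, and LAMB2 is the β chain of muscle, kidney and nerve. LAMB1 was at 97.8, 99.2 and 97.1 TPM in SCR and at 71.8, 68.9 and 70.2 TPM in TFEB-KD, a narrow range in each group with a clear gap between them. It fell by 0.585 on the log2 scale (standard error 0.051, edgeR adjusted p = 6.32e-06). The span of the DLD gene overlaps that of LAMB1 on the opposite strand, and DLD had 34.7% of the counts of LAMB1. Exon overlap was not checked, so it is not known if reads of LAMB1 are shared.

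LAMC1 was at 222, 252 and 232 TPM in SCR and at 219.7, 192 and 182 TPM in TFEB-KD. The highest TFEB-KD library was just under the lowest SCR library. Its log2 fold change was -0.43 (standard error 0.061, edgeR adjusted p = 2.13e-04). It fell short of the fold threshold with library sizes alone (-0.34), with length offsets (-0.28) and without TFEB-KD replicate 3 (-0.36, just inside the threshold). With limma on log2(TPM + 1) or log2(TPM + 0.1) it was at -0.25, and the call was also lost with glmTreat. LAMB2 was at 248, 284 and 272 TPM in SCR and at 231, 222 and 220.1 TPM in TFEB-KD, without overlap, and its log2 fold change of -0.32 (standard error 0.053, edgeR adjusted p = 6.12e-04) did not pass the fold threshold. LAMB3, a keratinocyte β chain, had 502, 374 and 404 counts in the SCR libraries against 303, 330 and 285 in the TFEB-KD libraries and was called lower (log2 fold change -0.49, standard error 0.12, edgeR adjusted p = 0.00651), though not without TFEB-KD replicate 3 (-0.34).

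Relative to LAMB1, the other 2 abundant chains held more of the total in TFEB-KD. The ratio of LAMB2 to LAMB1 in TPM was 2.54, 2.86 and 2.81 in SCR and 3.22, 3.22 and 3.14 in TFEB-KD, and that of LAMC1 to LAMB1 was 2.27, 2.54 and 2.39 in SCR and 3.06, 2.78 and 2.60 in TFEB-KD. In neither ratio did the groups overlap, with log2 differences of 0.22 and 0.23 (exact permutation p = 0.1 for each, and 0.1 after adjustment over 5 ratios).

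Nidogens bridge the laminin and collagen IV networks, and perlecan and agrin carry heparan sulfate chains. Among these 4 genes the 2 proteoglycans were lower by the wider margin. AGRN (agrin, ENSG00000188157.15), known for clustering acetylcholine receptors at the nerve-muscle junction, was at 70.5, 76.4 and 78.6 TPM in SCR and at 39.3, 35.5 and 35.6 TPM in TFEB-KD. All 3 TFEB-KD libraries lay far under the SCR libraries, and the log2 fold change was -1.07 (standard error 0.055, edgeR adjusted p = 1.38e-07). HSPG2 (perlecan) was at 55.6, 60.2 and 64.6 TPM in SCR and at 36.8, 35.1 and 30.3 TPM in TFEB-KD, with a log2 fold change of -0.91 (standard error 0.074, edgeR adjusted p = 3.72e-06).

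NID1 (nidogen 1) had 6296, 4837 and 5820 counts in the SCR libraries against 4484, 4117 and 4604 in the TFEB-KD libraries. Its log2 fold change of -0.38 (standard error 0.063, edgeR adjusted p = 6.41e-04) lay at the fold threshold and fell short of it with library sizes alone (-0.29) or without SCR replicate 2, TFEB-KD replicate 2 or TFEB-KD replicate 3 (-0.34, -0.35 and -0.30). NID2 (nidogen 2), with 11693, 9196 and 11770 counts in the SCR libraries against 8956, 8051 and 9027 in the TFEB-KD libraries, lay on the other side of it (log2 fold change -0.35, standard error 0.073, edgeR adjusted p = 0.00290) and passed it without SCR replicate 1 or without TFEB-KD replicate 1 (-0.41 each). The span of the RTRAF gene overlaps that of NID2 on the opposite strand, and RTRAF had 48.9% of the counts of NID2. Exon overlap was not checked here either, so it is not known if reads of NID2 are shared. The 2 nidogens thus had log2 fold changes within 1 standard error of each other, on either side of the threshold. The NID1 to LAMC1 ratio was 0.112 ± 0.00275 in SCR and 0.103 ± 0.00219 in TFEB-KD on TPM (log2 difference -0.11, exact permutation p = 0.1) and had the opposite sign on counts (0.050).

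SPARC (osteonectin, ENSG00000113140.11), a secreted protein that binds collagen IV and fibrillar collagens and helps in their assembly, was the most abundant of the 35 genes. It was at 2812, 2917 and 3203 TPM in SCR and at 1229, 1150 and 1057 TPM in TFEB-KD. The lowest SCR library had more than 2-fold the level of the highest TFEB-KD library. In CPM the mean was 2877 ± 190 in SCR against 1114 ± 33.3 in TFEB-KD (SD, n = 3 each), 38.7% of SCR, with a log2 fold change of -1.37 (standard error 0.054, edgeR adjusted p = 2.23e-08). SMOC1 and SMOC2, of the same protein family, had at most 6 counts in any library.

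SPARC occupies chr5:151661096-151686975 on the minus strand of GRCh38. The 190 bases before its start, chr5:151686976-151687165 (GRCh38.p14, minus strand), are shown as the promoter stretch of the gene that dominated the total. They are rich in runs of A and G, are 60% G and C and hold neither a GGGCGG nor a CCAAT box, so no base is in capitals.
SPARC: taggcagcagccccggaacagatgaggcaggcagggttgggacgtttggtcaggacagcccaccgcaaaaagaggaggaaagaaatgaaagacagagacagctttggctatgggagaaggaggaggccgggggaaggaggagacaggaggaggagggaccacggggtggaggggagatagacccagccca

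DAG1 encodes both subunits of dystroglycan, the receptor through which laminins, perlecan and agrin hold muscle and other cells. It had 8022, 6025 and 7465 counts in the SCR libraries against 4974, 5037 and 6075 in the TFEB-KD libraries. Although TFEB-KD replicate 3 and SCR replicate 2 had nearly equal raw counts, their depths differed, and in CPM the TFEB-KD libraries ran from 113.5 to 114 and the SCR libraries from 148 to 160. The log2 fold change was -0.44 (standard error 0.042, edgeR adjusted p = 1.23e-05), and with library sizes alone it was -0.35, short of the threshold.

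The Fraser complex genes FRAS1, FREM1 and FREM2, which anchor the skin basement membrane during development, were expressed at low levels. FRAS1 had 438, 332 and 455 counts in the SCR libraries against 590, 545 and 552 in the TFEB-KD libraries and was called higher, with a log2 fold change of 0.45 (standard error 0.10, edgeR adjusted p = 0.00461). In limma on log2(TPM + 0.1) it was not called (0.44, limma adjusted p = 0.116). FREM1 had 15 to 19 counts in SCR and 6 to 12 in TFEB-KD and was not called (log2 fold change -0.83, standard error 0.37, edgeR adjusted p = 0.0852).

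The remaining associated proteins included the member with the largest fold change of the 28. TINAGL1 (tubulointerstitial nephritis antigen like 1, ENSG00000142910.16), a secreted protein of vessel and other basement membranes, had 250, 192 and 319 counts in the SCR libraries against 4, 13 and 22 in the TFEB-KD libraries. In TFEB-KD the gene was thus close to the limit of detection, and every TFEB-KD library was far under every SCR library. Its level was 5.47 ± 1.08 CPM in SCR against 0.266 ± 0.163 CPM in TFEB-KD (SD, n = 3 each), 4.87% of SCR. The log2 fold change was -4.31 (standard error 0.31, edgeR adjusted p = 1.53e-06), and it lay between -4.78 and -3.91 when each library was left out in turn. In limma on log2(TPM + 1), a scale that understates changes of low levels, it was -1.85 (limma adjusted p = 9.93e-05).

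TINAGL1 occupies chr1:31576485-31587686 on the plus strand of GRCh38. The 220 bases before its start, chr1:31576265-31576484 (GRCh38.p14, plus strand), are shown because of the size of its change. Capitals mark GGGCGG, which begins at bases 196, 208 and 212, the last 2 sharing bases.
TINAGL1: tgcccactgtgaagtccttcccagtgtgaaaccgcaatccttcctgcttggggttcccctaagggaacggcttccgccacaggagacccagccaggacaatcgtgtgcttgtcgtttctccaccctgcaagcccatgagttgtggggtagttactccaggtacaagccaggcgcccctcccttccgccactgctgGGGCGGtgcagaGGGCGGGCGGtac

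PXDN (peroxidasin), the peroxidase that forms the sulfilimine crosslinks between collagen IV trimers, was at 142, 152 and 152 TPM in SCR and at 120.5, 107.5 and 108 TPM in TFEB-KD. It fell by 0.44 on the log2 scale (standard error 0.053, edgeR adjusted p = 6.97e-05), and with library sizes alone its value of -0.35 missed the threshold. HMCN1 (hemicentin 1) had 557, 491 and 585 counts in the SCR libraries against 738, 596 and 703 in the TFEB-KD libraries and was not called (log2 fold change 0.29, standard error 0.11, edgeR adjusted p = 0.0531). It was called higher with library sizes alone (0.38) and when SCR replicate 2, TFEB-KD replicate 2 or TFEB-KD replicate 3 was left out (0.36, 0.37 and 0.38). PAPLN (papilin) had 38 to 59 counts in SCR and 44 to 77 in TFEB-KD, with overlap (log2 fold change 0.41, standard error 0.22, edgeR adjusted p = 0.151). In TPM its groups did not overlap (0.209 to 0.2505 in SCR, 0.306 to 0.588 in TFEB-KD), and it was called higher with length offsets (1.04, edgeR adjusted p = 0.0230). An antisense gene, PAPLN-AS1, shares its locus. Whether the exons of the genes overlap was not checked, so it is not known if reads of PAPLN are shared.

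Summed over the 35 genes, the basement membrane transcripts made up 0.461% of all TPM in SCR and 0.232% in TFEB-KD. The summed TPM was 4378, 4587 and 4869 in SCR and 2457, 2304 and 2189 in TFEB-KD (exact permutation p = 0.1), 50.2% of SCR. Most of the difference was SPARC: without it the sums were 1634 ± 58.9 and 1171 ± 50.3 TPM (SD, n = 3 each), 71.7% of SCR, still without overlap (exact permutation p = 0.1).

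By role, the summed TPM of laminin α chains was 37.3 ± 2.53 in SCR and 23.0 ± 0.85 in TFEB-KD, and that of β and γ chains 605 ± 33.0 and 495 ± 26.4 (SD, n = 3 each). Nidogens with perlecan and agrin had 230.4 ± 10.7 and 149 ± 12.5 TPM. In each of these 3 groups every TFEB-KD library was under every SCR library (exact permutation p = 0.1 each). Only for the Fraser complex, at 0.817 ± 0.125 and 1.16 ± 0.262 TPM, did the libraries of the 2 groups overlap among the role groups summed (exact permutation p = 0.2). Summed in CPM the Fraser complex did not overlap, at 9.22 ± 0.748 in SCR and 12.35 ± 1.55 in TFEB-KD (exact permutation p = 0.1).

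**Figure D3:**
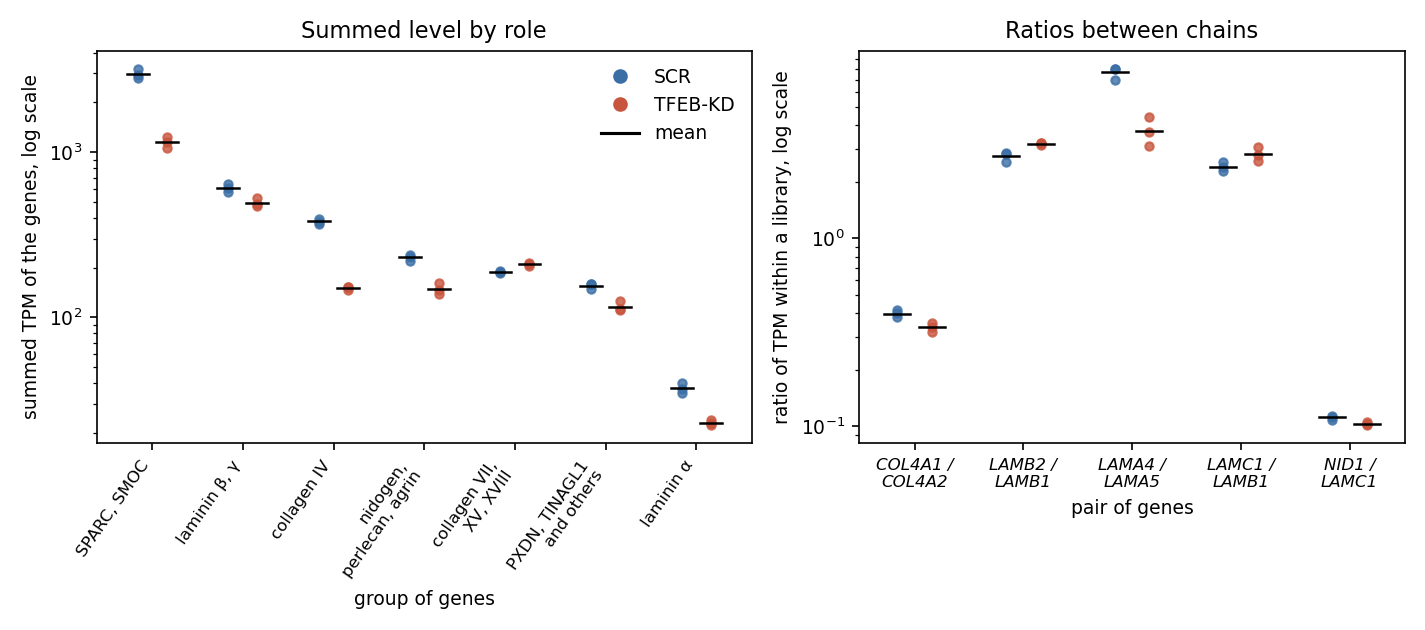
Left, summed TPM of the genes of each role in each library (log axis, black bar the mean); the low Fraser complex and the single dystroglycan gene are not drawn. Right, ratio of TPM between 2 genes within each library (log axis): collagen IV and SPARC have the widest gaps on the left, collagens VII, XV and XVIII together are higher in TFEB-KD on TPM (188 to 209.4) but lower on CPM (657 to 613), and on the right LAMA4 to LAMA5 has the widest gap on TPM (log2 difference -1.04, and -0.59 on counts).

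The genes that act on basement membranes were then counted from 5 lists. Of 17 genes for the folding, modification and export of collagen IV, 12 were lower in TFEB-KD (70.6%, against 15.0% of all genes tested) and 0 were higher (9.99% of all genes) by edgeR at the thresholds used. At an unadjusted p under 0.05, 2 had a log2 fold change above 0, and DESeq2 called 1 higher, P3H2, whose log2 fold change of 0.36 was just inside the threshold by edgeR. P4HB, called lower, was just past the threshold (-0.362) and lost its call in 12 of 17 alternatives, DESeq2 among them. The median of the list was -0.56. PLOD2, a lysyl hydroxylase of collagen, was at 300.2 ± 8.46 CPM in SCR and 103 ± 2.69 CPM in TFEB-KD (SD, n = 3 each; log2 fold change -1.54, standard error 0.043, edgeR adjusted p = 8.53e-09). LOXL2, which crosslinks the 7S domain of collagen IV, was at 1675 ± 68.5 and 636 ± 16.4 CPM (log2 fold change -1.40, standard error 0.046, edgeR adjusted p = 1.24e-08), and P4HA1, a catalytic subunit of prolyl 4-hydroxylase, at 155 ± 5.42 and 71.0 ± 0.790 CPM (log2 fold change -1.13, standard error 0.042, edgeR adjusted p = 1.80e-08). These enzymes also act on other collagens.

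Of 12 receptors, 7 were lower (ITGA1, ITGA3, ITGA6, ITGA8, ITGB1, BCAM and DDR1) and 1, ITGA2, was higher, with a median of -0.38. These are shares of 58.3% lower and 8.33% higher, against 15.0% and 9.99% of all genes tested. ITGA1, the integrin subunit that prefers collagen IV, fell by 1.29 on the log2 scale (standard error 0.078, edgeR adjusted p = 4.55e-07). BCAM, a receptor of the laminin α5 chain, fell by 1.35 (standard error 0.085, edgeR adjusted p = 5.94e-07) and DDR1, a collagen receptor kinase, by 0.94 (standard error 0.066, edgeR adjusted p = 1.35e-06). ITGA2, which with ITGB1 prefers fibrillar collagen, went from 238 ± 9.87 to 374 ± 29.3 CPM (SD, n = 3 each; log2 fold change 0.65, standard error 0.059, edgeR adjusted p = 8.86e-06). Without TFEB-KD replicate 3 the calls of ITGA3, ITGA8 and ITGB1 were lost and 4 receptors were lower, against 2294 genes lower over all genes. With library sizes alone, with length offsets and with limma on log2(TPM + 1) or log2(TPM + 0.1), 5 receptors were lower.

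Proteases of basement membranes and their inhibitors were called in both directions. Of 15 tested, 5 were higher (33.3%, against 9.99% of all genes tested) and 3 lower (20%, against 15.0%), with a median of 0.13. The 5 were the proteases MMP3 and ADAMTS1 and the inhibitors TIMP1, TIMP3 and TIMP4. MMP3 (stromelysin 1) went from 33.0 ± 4.35 to 124 ± 3.83 CPM (SD, n = 3 each; log2 fold change 1.91, standard error 0.080, edgeR adjusted p = 3.33e-08). TIMP3, an inhibitor that is held in the matrix, went from 1099 ± 57.4 to 1967 ± 24.5 CPM (log2 fold change 0.84, standard error 0.047, edgeR adjusted p = 2.49e-07), and ADAMTS1 from 229 ± 19.6 to 357 ± 12.2 CPM (log2 fold change 0.64, standard error 0.061, edgeR adjusted p = 1.22e-05). The 3 lower genes were BMP1 (log2 fold change -0.49), MMP15 (-0.54) and TLL2 (-0.83). TLL2 had 11 to 27 counts per library, and its call (edgeR adjusted p = 0.0368) was lost with DESeq2 (adjusted p = 0.163) and when any of the 6 libraries was left out. MMP2, at 534 TPM in SCR and 413 TPM in TFEB-KD, was just inside the threshold (log2 fold change -0.354, edgeR adjusted p = 5.33e-04). It was called lower in 6 of 17 alternatives.

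Of 17 tested genes for heparan sulfate synthesis and editing, 5 were lower (SULF1, XYLT2, EXTL3, EXT2 and HS6ST1; 29.4%, against 15.0% of all genes tested) and 0 higher by edgeR (9.99% of all genes), with 1 above 0 at an unadjusted p under 0.05 and a median of -0.26. SULF1, an extracellular sulfatase that trims 6-O-sulfate, fell by 1.32 on the log2 scale (standard error 0.058, edgeR adjusted p = 4.36e-08), XYLT2, which starts the chains, by 0.65 (standard error 0.044, edgeR adjusted p = 9.15e-07) and EXTL3 by 0.55 (standard error 0.050, edgeR adjusted p = 8.52e-06). Of 19 genes for the glycosylation of dystroglycan and its partners, 7 were lower (36.8%, against 15.0% of all genes tested) and 0 higher by edgeR (9.99% of all genes), none of the 19 above 0 at an unadjusted p under 0.05, and the median was -0.20. DMD (dystrophin) fell by 1.44 (standard error 0.092, edgeR adjusted p = 6.48e-07), SGCD (delta-sarcoglycan) by 0.87 (standard error 0.063, edgeR adjusted p = 1.55e-06) and SSPN (sarcospan) by 0.98 (standard error 0.074, edgeR adjusted p = 2.29e-06). UTRN (utrophin) and SGCB had log2 fold changes of -0.033 and -0.051 and were not called.

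**Figure D4:**
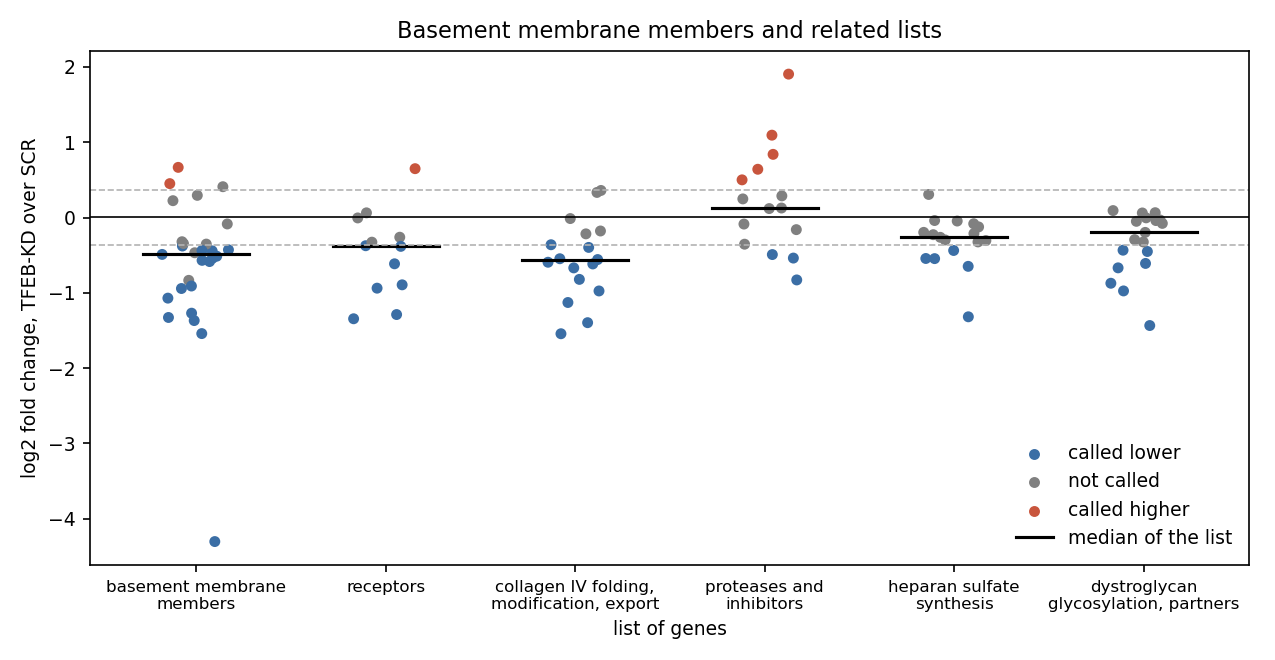
Log2 fold change, TFEB-KD over SCR, of each tested gene among the basement membrane members and 5 related lists, coloured by call, with the median of each list as a black bar and dashed lines at the fold threshold of 0.36. The medians of the members and of the folding list are at -0.48 and -0.56, and the protease and inhibitor list is the one whose median, 0.13, lies above 0.

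Markers of endothelial cells, keratinocytes and melanocytes were low or were carried by a single gene. Of 9 endothelial markers, EGFL7 (mean 26.9 TPM) alone passed 1 TPM and KDR had at most 3 counts in every library, and the summed TPM was 25.0, 23.5 and 27.9 in SCR and 30.2, 31.2 and 27.3 in TFEB-KD. Of 8 keratinocyte markers KRT10 (mean 65.7 TPM) alone passed 1 TPM, TP63 and DSC3 had at most 3 counts in every library, and the sums were 69.6, 71.1 and 66.8 against 61.7, 62.7 and 65.2 TPM. The melanocyte markers (most abundant PMEL, mean 0.615 TPM; TYR and TYRP1 at most 3 counts) summed to 0.670 to 0.957 and 0.285 to 0.652 TPM.

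Of 8 pericyte and smooth muscle markers, 6 of which passed 1 TPM, 4 were lower (MCAM, DES, NOTCH3 and CSPG4; 50%, against 15.0% of all genes tested) and 1, ABCC9, was higher (12.5%, against 9.99%). Their summed TPM was 85.3, 94.2 and 90.1 in SCR and 67.6, 63.2 and 60.6 in TFEB-KD, without overlap, and CSPG4 was the most abundant (mean 36.1 TPM). None of the 8 was at 3 counts or fewer in every library, and fibroblasts in culture also express several of them. These cells are another source of collagen IV, laminin α4 and perlecan, and the part of such transcripts in the lower values was not tested.

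The promoters of the genes were searched for letters bound by TFEB. RefSeq windows of 300 bases (250 before to 50 after the start, GRCh38.p14) were at hand for 31 of the 35 genes, all but AGRN, HMCN1, LAMA1 and LAMC3. CACGTG, the centre of the CLEAR element that TFEB binds and its own reverse complement, was in 0 of the 31 windows and in 7.43% of all 27305 windows. The longer TCACGTGA, which contains it, was in 0 and in 1.04%. CATGTG, searched on both strands, was in 2, those of LAMA3 and PXDN (6.45%), and in 11.2% of all windows. For CACGTG and TCACGTGA the counts say only that these letters are not in these windows.

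The windows of the 31 genes were rich in G and C, with a median of 68.7% against 58.3% in all windows. GGGCGG was in 23 of them (74.2%) and in 44.6% of all windows, CCAAT in 12 (38.7%) and in 35.7%, and TATAAA in 2 (6.45%) and in 11.95% of all, each searched on both strands.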

How the data were processed

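RNA was sequenced from HFF-2 HDFs in 3 SCR and 3 TFEB-KD libraries (SMARTer kit, paired reads). Per the labels and the study's methods, the authors trimmed the reads (Trim Galore), aligned them with STAR 2.7.10a to hg38 with GENCODE genes and quantified them with Salmon 1.10.1 in the nf-core pipeline. The GENCODE release and the use of strand are not given in the sources used here. The deposited estimated counts per gene were not normalized between libraries. The deposited TPM were length-scaled by the authors' pipeline, with an equal total for all libraries. Another deposited table, of the authors' own DESeq2 comparison (fold changes and p-values), was not used.

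Estimated counts were rounded, filtered by filterByExpr (16931 of 62754 genes left) and compared in R 4.3.3 with edgeR 4.0.16 (TMM, estimateDisp, glmQLFit, glmQLFTest; Benjamini-Hochberg over all genes tested; no replicate block). The unshrunk log2 fold change over the square root of F gave the standard error. Sums and ratios of TPM were compared by exact two-sided permutation tests. The code was tested on simulated data. The common biological coefficient of variation was 0.0646. Chi-square per degree of freedom was 5.41 to 14.9 between libraries of a group, so none was a copy of another. Labels give the same batch entry for all libraries.

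The members and lists were chosen with earlier results of these data known. All tested members are named. Of each related list, the 3 genes of smallest adjusted p and those called against the list's main direction are given, and other genes, and the search for GC, CCAAT and TATA boxes, were added after values were seen. Alternatives were DESeq2 1.42.0 with and without the gene filter, RLE factors, library sizes alone, no filter, a minimum of 10 counts per library, glmTreat, a replicate block, limma 3.58.1 on log2(TPM + 1) and log2(TPM + 0.1), transcript length offsets from the ratio of counts to TPM, a fold threshold of 1, and leaving out each library. Gene positions are from GENCODE 44 (GRCh38), where all 35 members were found by identifier, and promoter sequences from RefSeq (GRCh38.p14).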

Additional observations from a re-analysis of the deposited data

How the results depend on the processing

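The calls of COL4A1, COL4A2, COL4A5, SPARC and AGRN held under every alternative run, and that of TINAGL1 under each in which it was tested, all but at least 10 counts in every library. With the fold threshold of 1 counted, LAMC1 and NID1 each lost their call in 7 of 18 alternatives. LAMA1 lost it in 5, FRAS1 in 4, and LAMA2, LAMB3, DAG1 and PXDN in 3 each. The members' median stayed between -0.50 and -0.35 (over 26 members with at least 10 counts in every library). The replicate block changed no member's call (17 lower, 2 higher, median -0.50), and the log2 changes of COL4A1 and SPARC with it were -1.54 and -1.37. Over all genes the block gave 1595 higher and 2450 lower. The deviations of libraries with the same number correlated at -0.145, 0.022 and -0.0496, so the numbers were not taken to pair them. With glmTreat, which tests against 0.36 itself, 788 genes were higher and 1573 lower over all genes, 1 member higher and 10 lower, 4 receptors lower and 1 protease or inhibitor lower. At an absolute log2 fold change over 1 there were 422 and 864 genes, 0 members higher and 6 lower, 0 receptors higher and 2 lower, 3 folding genes lower, 2 proteases or inhibitors higher and 0 lower, 1 heparan sulfate gene lower and 1 dystroglycan gene lower. limma on log2(TPM + 1) gave 1668 genes lower. Length offsets gave 1490 genes higher and 2144 lower over all genes, with 15 members lower and 4 higher (COL7A1, PAPLN, FRAS1 and COL15A1). In the folding list 1 gene was higher with DESeq2 with or without the gene filter, RLE factors, no filter, at least 10 counts, the replicate block, limma at either pseudocount and length offsets, 2 with library sizes alone, and 0 to 2 with a library left out. Folding genes called lower fell from 12 to 10 with library sizes alone, with glmTreat and without TFEB-KD replicate 3. Of the heparan sulfate genes 1 was higher with library sizes alone and 1 with limma on log2(TPM + 0.1). Receptors called lower ran from 4 (without TFEB-KD replicate 3) to 8 with a library left out. Signs turned, in values not called there, for COL4A6 (0.027 and 0.018 with limma at a pseudocount of 1 and 0.1, 0.15 with length offsets), FREM1 (0.046, 0.16 and 0.22), LAMA5 (0.022, 0.025 and 0.0092) and LAMA3 (0.16, 0.31 and 0.32, and 0.0044 with library sizes alone). The NID1 to LAMC1 log2 difference was 0.050 on counts. The log2 ratio of the summed collagens VII, XV and XVIII was -0.10 on CPM, a sum added after the values were seen, against 0.16 on TPM, and the other 7 role groups kept their direction. Causes were not tested, except that a higher fold threshold passes fewer genes by construction. Depth limits the 7 untested members, COL4A6 and FREM1, at most 35 counts in any library.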

Other observations

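Of the chains of interstitial collagens, COL3A1, COL1A1 and COL1A2 stood among the fibroblast markers and were lower in TFEB-KD. COL3A1, the collagen III chain of loose connective tissue, went from 729.8 ± 63.5 CPM in SCR to 83.7 ± 3.98 CPM in TFEB-KD (SD, n = 3 each; log2 fold change -3.12, standard error 0.069, edgeR adjusted p = 1.76e-09). COL1A1, a chain of collagen I, went from 8947 ± 832 to 3116 ± 106 CPM (log2 fold change -1.52, standard error 0.064, edgeR adjusted p = 3.38e-08), beside -1.54 for COL4A1.

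Some abundant genes of the related lists were named after their values were seen. SERPINH1, the collagen chaperone HSP47, fell by 0.82 on the log2 scale (standard error 0.059, edgeR adjusted p = 1.40e-06), and PPIB, a prolyl isomerase of the endoplasmic reticulum, fell by 0.55 (standard error 0.041, edgeR adjusted p = 2.11e-06). ITGB1, the β subunit shared by most basement membrane integrins, had means of 865 TPM in SCR and 672 TPM in TFEB-KD and lay close to the fold threshold (log2 fold change -0.38, standard error 0.044, edgeR adjusted p = 5.02e-05). TIMP1, at 4233 and 6185 TPM, was more abundant than SPARC in both groups and was higher in TFEB-KD (log2 fold change 0.50, standard error 0.055, edgeR adjusted p = 3.61e-05).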
